A study of Homo sapiens with 9 samples.

Results

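The genes followed here belong to the low-oxygen response and to the vascular endothelial growth factor (VEGF) family, and were measured in human embryonic stem cells before and after differentiation with the ATF6 activator AA147 or its inactive analog RP22. They are 10 genes chosen by name, namely the VEGF ligand genes VEGFA, VEGFB, VEGFC and PGF, the vasoactive peptide gene ADM, the HIF prolyl hydroxylase genes EGLN1 and EGLN3, and the hypoxia-responsive genes NDRG1, BNIP3 and CA9. All 10 were found among the 27730 gene symbols of the deposited count table. At day 13, PGF averaged 2.82 ± 1.38 CPM (read counts scaled to library size and between libraries) with AA147 and 50.7 ± 3.83 CPM with RP22 (SD, n = 3 each). This was the largest fold change between the compounds among the 9 genes tested. VEGFA was also lower with AA147, whereas VEGFB, ADM, EGLN1 and EGLN3 were higher.

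The cells were HUES9, a human embryonic stem cell line kept on mitotically inactivated mouse embryonic fibroblasts. The first group was differentiated to day 13 with 10 µM AA147, the second to day 13 with 10 µM RP22, and the third was collected at day 1 with no agent, each with 3 replicates that the labels call independent experiments. AA147 is labelled as a small molecule that activates ATF6, which turns on chaperone genes under endoplasmic reticulum stress, and RP22 as its inactive analog. Differentiation ran through embryoid bodies that were later plated on Matrigel, after a Stemolecule pretreatment that the labels do not name further, and the labels name no low-oxygen treatment. All 9 libraries come from 1 cell line, and reads of mouse feeder cells cannot be told apart in the deposited tables.

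In well-oxygenated cells the prolyl hydroxylases encoded by the EGLN genes mark the alpha subunits of hypoxia-inducible factor (HIF) for binding by VHL and degradation. When oxygen is low, HIF alpha pairs with ARNT, binds DNA at a short core that contains CGTG, and raises transcription of genes that include VEGFA, ADM, CA9, BNIP3, NDRG1, EGLN1 and EGLN3. VEGFA signals mainly through the receptor KDR, VEGFB and PGF bind FLT1, and VEGFC signals through FLT4 and KDR.

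The promoters of the genes in which ACGTG, a form of the HIF core, was found are shown, since these members are known HIF targets that did not move together here. A RefSeq promoter (GRCh38.p14, 250 bases before to 50 after the gene's start) was at hand for 8 of the 10 genes, and ACGTG on either strand was present in 3 of them, compared with 21.4% of 35116 RefSeq promoters. Capitals mark ACGTG as read on the gene's strand, where CACGT is ACGTG on the other strand. In CA9 (chr9:35673678-35673977, plus strand) it begins at position -18 from the start, in EGLN1 (chr1:231422238-231422537, minus strand) at -13, and in BNIP3 (chr10:131981874-131982173, minus strand) at -134, where the cores of both strands overlap.
CA9: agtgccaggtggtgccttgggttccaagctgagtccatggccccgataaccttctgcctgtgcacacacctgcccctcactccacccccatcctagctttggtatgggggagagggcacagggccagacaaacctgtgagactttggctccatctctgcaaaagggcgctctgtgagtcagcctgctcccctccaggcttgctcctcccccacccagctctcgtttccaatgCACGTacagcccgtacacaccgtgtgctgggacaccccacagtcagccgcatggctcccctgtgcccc
BNIP3: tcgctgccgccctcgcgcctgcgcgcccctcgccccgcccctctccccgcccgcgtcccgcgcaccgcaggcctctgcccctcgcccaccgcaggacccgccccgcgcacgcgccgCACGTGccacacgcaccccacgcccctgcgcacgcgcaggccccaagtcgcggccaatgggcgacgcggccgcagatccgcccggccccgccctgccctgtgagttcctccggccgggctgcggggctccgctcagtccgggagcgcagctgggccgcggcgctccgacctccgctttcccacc
EGLN1: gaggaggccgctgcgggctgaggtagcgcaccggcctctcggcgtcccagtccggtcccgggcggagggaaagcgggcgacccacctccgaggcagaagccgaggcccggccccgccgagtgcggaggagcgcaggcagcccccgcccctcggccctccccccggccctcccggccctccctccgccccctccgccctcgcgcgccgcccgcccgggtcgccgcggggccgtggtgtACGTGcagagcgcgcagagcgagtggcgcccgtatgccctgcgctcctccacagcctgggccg
The windows of VEGFB, VEGFC, PGF, ADM and EGLN3 did not hold ACGTG on either strand. Other stretches that contain CGTG were not searched or marked, so the absence of capitals does not show the absence of a HIF core. Motifs known for ATF6 binding were searched on both strands in the same windows, TGACGTG (which contains ACGTG) and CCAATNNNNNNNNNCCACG, and 0 of the 8 genes held either, compared with 1.97% and 0.0769% of all promoters.

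Library totals lay between 9223027 and 10118258 reads. TMM scaling factors were 0.783 to 0.821 for AA147, 1.12 to 1.19 for RP22 and 1.08 for day 1, so levels depend on the scaling. With library totals in place of TMM, the median over all genes shifted (log2 scale) by -0.455 for AA147 over RP22 and by -0.438 for AA147 over day 1, and by 0.0982 for RP22 over day 1. RP22 replicate 1 stood apart, with a chi-square per degree of freedom of 28.0 and 26.9 to the other RP22 libraries, against 2.39 between those. The same held, less widely, for AA147 replicate 1, at 9.98 and 10.5 to the other AA147 libraries and 5.08 between those. Day 1 replicate 1 lay at 13.8 and 8.47 from the other day 1 libraries, which lay at 3.66 from each other. Pluripotency markers were low at day 13, with a summed level of 30.3 to 47.9 CPM with AA147, 279 to 462 CPM with RP22 and 4954 to 5454 CPM at day 1. The smooth muscle markers summed to 4225 to 4842 CPM, 518 to 650.5 CPM and 172 to 216 CPM in the same 3 groups, and the neural markers to 4.81 to 6.29 CPM, 674 to 736 CPM and 95.5 to 186 CPM. In such bulk cultures, fewer cells of a type and less RNA per cell cannot be told apart.

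Of the 10 genes, 9 passed the filter on low counts for AA147 against RP22. Among these, 4 were higher and 2 lower with AA147, and 3 did not pass the test (edgeR quasi-likelihood F test, threshold of 0.05 on p adjusted by Benjamini-Hochberg). Over all 14293 genes tested, 29.8% were higher and 32.2% lower, or 62.0% in either direction. The median log2 fold change was 0.595 for the 9 genes, against -0.0336 for all tested. The 3 AA147 libraries lay wholly above or below the 3 RP22 libraries for 7 of the 9 genes, and for 69.9% of all genes tested. With library totals in place of TMM, 4 of the 9 were higher and 3 lower, and the share of higher genes among all calls was 18.2%, against 48.1% with TMM.

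**Figure D1:**
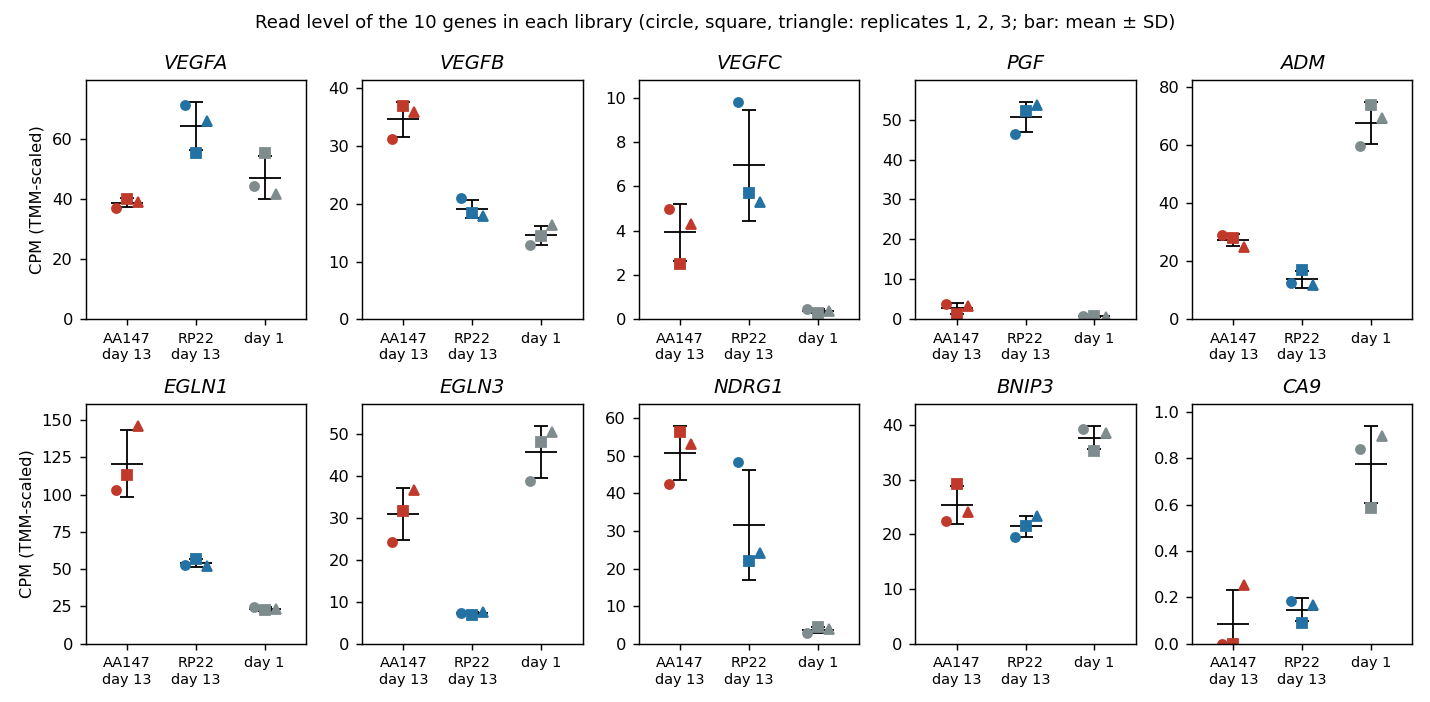
Level of each of the 10 genes in the 9 libraries, in TMM-scaled CPM on linear axes that start at 0, for AA147 at day 13, RP22 at day 13 and day 1. Symbols are libraries, and bars are the mean ± SD of 3. PGF is high in RP22 libraries alone (46.4 to 53.7 CPM), and ADM, EGLN3, BNIP3 and CA9 have their highest levels at day 1.

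PGF encodes placental growth factor, a VEGF relative that binds FLT1 and is abundant in placenta. Its level was 3.80, 1.25 and 3.42 CPM in the AA147 libraries and 46.4, 52.0 and 53.7 CPM in the RP22 libraries, against 0.745, 0.780 and 0.698 CPM at day 1. Thus the 3 RP22 libraries were close to each other and far above the other 6, while AA147 replicate 2 lay nearest to day 1. PGF was lower with AA147 than with RP22, with a log2 fold change of -4.24 ± 0.28 (SE; 18.9-fold; edgeR adjusted p = 2.9e-05). Against day 1 it was higher with RP22, by 6.08 ± 0.148 (edgeR adjusted p = 1.1e-07), with 1721 reads over the RP22 libraries and 23 at day 1. With AA147 it had 29, 9 and 27 reads, against 8, 8 and 7 at day 1, and did not pass the filter of that comparison. Without the filter its log2 fold change over day 1 was 1.90 ± 0.471 (edgeR adjusted p = 0.003).

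Trophoblast markers were set beside PGF because of its placental expression. Of 7 such markers, 2 were higher and 4 lower with AA147 than with RP22, beside 29.8% and 32.2% of all genes, and their summed level was 1659 to 1882 CPM with AA147, 730 to 845 CPM with RP22 and 9.45 to 43.8 CPM at day 1. At day 13 most of that sum was KRT7, an epithelial keratin found in many cell types, which was higher with AA147 by 1.57 ± 0.107 (edgeR adjusted p = 2e-05). GATA3, a transcription factor of trophoblast and other lineages, was higher too, by 0.47 ± 0.0731 (0.0009), and TFAP2A did not pass the test (-0.01 ± 0.0978, 0.92). The chorionic gonadotropin gene CGB5 had 5.89, 2.35 and 3.16 CPM with AA147 and 22.5, 40.5 and 39.0 CPM with RP22. The placental aromatase gene CYP19A1 had 5.76, 4.71 and 5.82 CPM with AA147 and 40.5, 35.8 and 42.0 CPM with RP22. GCM1, a transcription factor of syncytiotrophoblast formation, had 3, 0 and 3 reads with AA147, 77, 44 and 68 reads with RP22, and 0 in every day 1 library. CGB5, CYP19A1 and GCM1, and ERVFRD-1, which encodes the fusion protein syncytin-2, were the 4 markers lower with AA147. The list was thus split, and its part in the PGF result was not tested. GCM1 and ERVFRD-1 passed the count filter only through the RP22 libraries, where they are high.

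VEGFA encodes the main angiogenic ligand of the family. It had 37.1, 40.0 and 38.9 CPM with AA147 and 71.3, 55.4 and 66.0 CPM with RP22, against 44.4, 55.3 and 41.7 CPM at day 1. The AA147 libraries all lay below the RP22 libraries, and the lowest RP22 library was level with the highest at day 1. VEGFA was lower with AA147 than with RP22, at a log2 fold change of -0.83 ± 0.103 (edgeR adjusted p = 0.00029). Against day 1 it was lower with AA147, by -0.29 ± 0.116 (edgeR adjusted p = 0.043), and higher with RP22, by 0.46 ± 0.135 (edgeR adjusted p = 0.015). Both differences from day 1 were small and ended when certain libraries were left out. The first also depended on the scaling, at -0.73 with library totals in place of TMM (edgeR adjusted p = 0.00027) and -0.83 with limma on log2 RPKM (adjusted p = 0.00012). With TMM it was -0.16 without day 1 replicate 2 (edgeR adjusted p = 0.17) and also ended without AA147 replicate 1, 2 or 3 (0.088 to 0.13) and with DESeq2 (0.097). The second was 0.41 without day 1 replicate 1 (edgeR adjusted p = 0.053) and 0.36 without day 1 replicate 3 (0.072).

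VEGFB, whose product binds FLT1 and is better known for roles in heart and fat tissue than for vessel growth, moved the other way. Its level was 31.2, 36.9 and 35.9 CPM with AA147 and 21.0, 18.5 and 17.9 CPM with RP22, against 12.9, 14.4 and 16.3 CPM at day 1. The 3 groups did not overlap. VEGFB was higher with AA147 than with RP22, by 0.76 ± 0.103 (edgeR adjusted p = 0.00044), which was 0.31 with library totals in place of TMM (0.02). It was higher than at day 1 with AA147, by 1.25 ± 0.127 (edgeR adjusted p = 1.1e-05), and with RP22, by 0.41 ± 0.135 (0.025). The RP22 difference from day 1 ended without RP22 replicate 1 or 2 and without day 1 replicate 1 or 2, at edgeR adjusted p between 0.053 and 0.071, and with replicate 1 of both groups left out (0.11).

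VEGFC encodes the ligand of lymphatic vessel growth. It was near the floor at day 1, with 5, 3 and 4 reads, and had 38, 18 and 34 reads with AA147 and 106, 63 and 64 reads with RP22. It was therefore higher at day 13 in both arms, by 3.30 ± 0.42 with AA147 (edgeR adjusted p = 5.5e-05) and by 4.14 ± 0.396 with RP22 (3.9e-05). Between the compounds it averaged 3.92 ± 1.28 CPM with AA147 and 6.95 ± 2.50 CPM with RP22 (SD, n = 3 each). The log2 fold change of -0.91 ± 0.347 did not pass the test (edgeR adjusted p = 0.051), though the 3 libraries of each group did not overlap. It passed with 8 of 16 alternatives, among them DESeq2 (adjusted p = 0.045), library totals (edgeR adjusted p = 0.0074) and the fit without AA147 replicate 1 (0.042). It was -0.56 without RP22 replicate 1 (edgeR adjusted p = 0.13) and -0.65 without AA147 replicate 2 (0.15).

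The gene that led the VEGF ligands differed in each group. To compare genes, the deposited RPKM (reads per kilobase of gene, scaled to the library total but not by TMM) of VEGFA, VEGFB, VEGFC, PGF and FIGF, the gene of VEGF-D, was summed in each library. VEGFB held 56.4 ± 3.9% of the sum with AA147, PGF held 44.1 ± 6.3% with RP22, and VEGFA held 62.8 ± 1.7% at day 1 (SD, n = 3 each). PGF held only 4.52 ± 2.2% with AA147 and 1.73 ± 0.23% at day 1, and VEGFA held 32.9 ± 1.1% with AA147 and 32.3 ± 5.9% with RP22. In RP22 replicate 1 VEGFA (38.9%) rather than PGF (36.8%) led, and PGF led in the other RP22 libraries. With 1 length per gene, PGF led in that library too (40.4%, against 33.0% for VEGFA). The summed RPKM was 27.1 ± 0.534 with AA147, 73.3 ± 3.85 with RP22 and 25.5 ± 2.74 at day 1. The length behind the deposited RPKM of VEGFA was not constant, at 2662 to 3459 bases between libraries, and with 1 length per gene the share of VEGFA at day 1 was 60.7%.

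**Figure D2:**
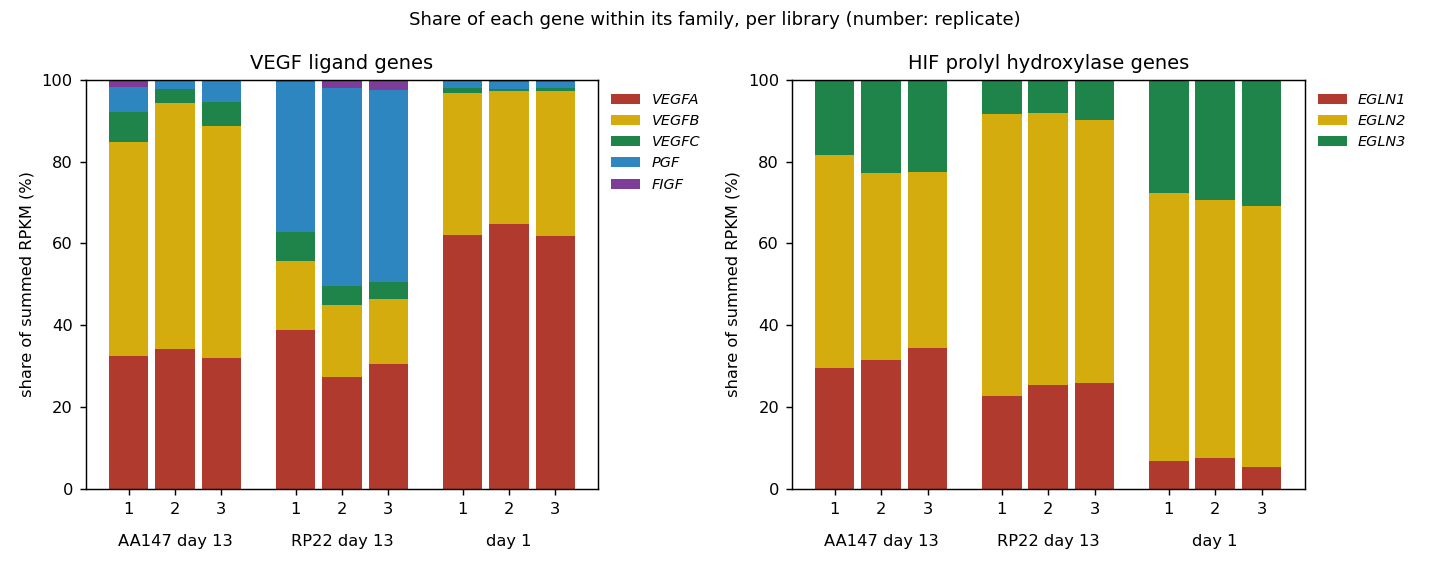
Share of each gene in the summed RPKM of the VEGF ligand genes (left) and of the HIF prolyl hydroxylase genes (right), in percent, for each of the 9 libraries. VEGFB is the widest band with AA147 (52.3 to 60.2%), PGF takes 36.8 to 48.5% with RP22 and VEGFA takes 61.7 to 64.8% at day 1. EGLN2 is the widest band of the hydroxylases in all 9 libraries.

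The VEGF receptor genes were mostly lower with AA147. Of 5 receptors and co-receptors, 0 were higher and 4 lower than with RP22, beside 29.8% and 32.2% of all genes, and the median log2 fold change was -1.57. KDR, the main signalling receptor of VEGFA, had 14.8, 2.63 and 7.34 CPM with AA147 and 129.5, 56.1 and 75.1 CPM with RP22, against 30.8, 51.5 and 51.3 CPM at day 1. It was lower with AA147 than with RP22, by -3.47 ± 0.636 (edgeR adjusted p = 0.0061). Over 16 alternatives the value ranged from -4.19 (without AA147 replicate 1) to -3.04, and KDR passed in each. The co-receptors NRP1 (-1.57 ± 0.363) and NRP2 (-1.27 ± 0.151) were lower too (edgeR adjusted p = 0.012 and 0.00031). FLT1, the receptor shared by PGF, VEGFB and VEGFA, had 60.0, 11.4 and 10.00 CPM with AA147 and 124, 36.3 and 45.0 CPM with RP22, so replicate 1 was high in both groups and the ranges overlapped. At each replicate number the AA147 library lay below the RP22 library, an order that by itself shows no difference. The log2 fold change of FLT1 was -1.41 ± 0.916 (edgeR adjusted p = 0.24), in a fit that did not pair the numbers.

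Endothelial markers were also mostly lower with AA147 than with RP22. With RP22 against day 1, 5 of 6 markers tested were higher, and 2 of 5 receptors and co-receptors, beside 36.6% of all genes. Of 8 such markers, 7 were tested, and 0 were higher and 6 lower with AA147 than with RP22, beside 29.8% and 32.2% of all genes. Their summed level was 1.90 to 10.9 CPM with AA147, 36.65 to 60.7 CPM with RP22 and 10.3 to 12.6 CPM at day 1. PECAM1 had 0 reads in each AA147 library, 14, 10 and 5 reads with RP22, and 0 in each day 1 library. CDH5 (435 reads with RP22 and 2 at day 1), VWF (69 and 6) and ESAM (64 and 17) passed the count filter only through the RP22 libraries, where they are high. They were not tested for AA147 against day 1. The counts of calls against RP22 and with RP22 therefore lean towards RP22 and are no independent support. The part of the endothelial markers in the receptor levels was not tested.

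ADM encodes adrenomedullin, a vasodilating peptide. It was the highest of the 10 genes per length at day 1, at 50.4 ± 5.45 RPKM (SD, n = 3). Its level was 29.1, 28.1 and 25.1 CPM with AA147 and 12.4, 17.0 and 11.8 CPM with RP22, against 59.7, 73.9 and 69.4 CPM at day 1. The 3 groups did not overlap, and RP22 was the lowest. ADM fell against day 1 by 1.30 ± 0.111 with AA147 and by 2.29 ± 0.157 with RP22 on the log2 scale (edgeR adjusted p = 3.3e-06 and 7.5e-06). It was higher with AA147 than with RP22, by 0.90 ± 0.159 (edgeR adjusted p = 0.0016), and by 0.45 with library totals in place of TMM (0.042).

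Adrenomedullin signals through the receptor CALCRL together with RAMP2 or RAMP3, whereas CALCRL with RAMP1 forms the receptor of the peptide CGRP. RAMP1 had 28.6, 40.4 and 56.3 CPM with AA147 and 5.10, 4.16 and 3.65 CPM with RP22, against 0.372, 0.292 and 0.299 CPM at day 1. It was higher with AA147 than with RP22, by 3.18 ± 0.271 (edgeR adjusted p = 8.1e-05). CALCRL was low throughout and lower with AA147, with 4, 6 and 6 reads with AA147 and 27, 45 and 55 reads with RP22, against 80, 69 and 61 reads at day 1. RAMP2 was lower with AA147 too, by -1.71 ± 0.46 (edgeR adjusted p = 0.012), and RAMP3 had 0 reads with AA147 and 3 with RP22. Among the 9 other angiogenic ligands and adrenomedullin receptor genes, 7 were tested. Of these, 1 was higher and 5 lower with AA147 than with RP22, beside 29.8% and 32.2% of all genes. ANGPT2, an angiopoietin made by endothelial cells, was lower with AA147 by -5.29 ± 0.351 (edgeR adjusted p = 1.7e-05). ANGPT1, the ligand of the TEK receptor, was lower by -1.14 ± 0.406 (edgeR adjusted p = 0.039). The ANGPT1 call ended with all 9 libraries in 1 fit (0.16) and when AA147 replicate 1 (0.11), AA147 replicate 3 (0.11), RP22 replicate 2 (0.083) or RP22 replicate 3 (0.14) was left out.

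EGLN1 encodes PHD2, the hydroxylase that sets HIF alpha levels in most cells. It had 103, 113 and 146 CPM with AA147 and 52.6, 56.9 and 52.5 CPM with RP22, against 24.9, 22.5 and 23.1 CPM at day 1. All AA147 libraries lay above all RP22 libraries, which lay above all day 1 libraries. EGLN1 was higher with AA147 than with RP22, by 1.07 ± 0.124 (2.09-fold; edgeR adjusted p = 0.00022). Against day 1 it rose by 2.36 ± 0.134 with AA147 and by 1.21 ± 0.0893 with RP22 (edgeR adjusted p = 2.2e-07 and 1.1e-05). With library totals, EGLN1 was higher with AA147 than with RP22 by 0.61 (edgeR adjusted p = 0.0027).

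EGLN3 encodes PHD3, a hydroxylase whose own gene is strongly induced by HIF. It had 24.4, 31.6 and 36.7 CPM with AA147 and 7.42, 6.97 and 7.56 CPM with RP22, against 38.8, 48.1 and 50.5 CPM at day 1. Thus EGLN3 had the opposite course to EGLN1 over differentiation and the same direction between the compounds. It was higher with AA147 than with RP22, by 1.98 ± 0.161 (3.95-fold; edgeR adjusted p = 4.2e-05). Against day 1 it fell by 0.57 ± 0.155 with AA147 and by 2.63 ± 0.133 with RP22 on the log2 scale (edgeR adjusted p = 0.0075 and 2e-06).

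Per length, EGLN2, which encodes PHD1 and is not among the 10 genes, led the hydroxylases in all 3 groups. It held 47.0 ± 4.7% of their summed RPKM with AA147, 66.6 ± 2.3% with RP22 and 64.0 ± 1.3% at day 1 (SD, n = 3 each). EGLN1 held 31.8 ± 2.4% with AA147 and 24.7 ± 1.7% with RP22, against 6.63 ± 1.1% at day 1. EGLN3 held 21.2 ± 2.6% with AA147 and 8.73 ± 0.89% with RP22, against 29.4 ± 1.6% at day 1. The deposited RPKM of EGLN1 also rested on lengths that differed between libraries, from 4943 to 7097 bases.

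The HIF subunits and their regulators did not move in 1 direction. Of 9 such genes, 3 were higher and 3 lower with AA147 than with RP22, beside 29.8% and 32.2% of all genes. Their median log2 fold change was -0.0993. With library totals 2 were higher and 6 lower, beside 1897 higher and 8527 lower of all 14293 genes tested. HIF1A, the oxygen-regulated subunit, had 965, 1254 and 1182 CPM with AA147 and 322, 323 and 303 CPM with RP22, against 351, 403 and 353 CPM at day 1. It was higher with AA147 than with RP22 by 1.75 ± 0.1 (edgeR adjusted p = 1e-05). EPAS1, which encodes HIF-2 alpha, was higher with AA147 than with RP22 by 1.64 ± 0.189 (edgeR adjusted p = 0.00032), and had 48 reads over the day 1 libraries. ARNT2, a relative of the HIF partner ARNT that is prominent in the nervous system, was lower with AA147 by -2.45 ± 0.153 (edgeR adjusted p = 1.4e-05). HIF activity is set mainly by protein stability, which these libraries do not measure.

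NDRG1 encodes a stress-responsive protein of differentiating cells and of myelinating Schwann cells. It had 42.6, 56.4 and 53.3 CPM with AA147 and 48.4, 21.9 and 24.3 CPM with RP22, against 2.79, 4.39 and 3.99 CPM at day 1. Thus RP22 replicate 1 lay within the AA147 range and the other RP22 libraries below it. NDRG1 rose against day 1 by 3.77 ± 0.18 with AA147 and by 3.09 ± 0.375 with RP22 (edgeR adjusted p = 7.1e-08 and 0.00029), and the second value was 2.46 with replicate 1 of both groups left out. Between the compounds the log2 fold change of 0.59 ± 0.32 did not pass the test (edgeR adjusted p = 0.15). It was 1.06 without RP22 replicate 1 (edgeR adjusted p = 9.8e-05) and 1.15 without replicate 1 of both groups (2.2e-09). SOX10, a transcription factor of neural crest and Schwann cells, had 1, 0 and 0 reads with AA147 and 1294, 487 and 484 reads with RP22, so RP22 replicate 1 was high for it as well. SOX10 was singled out from 6 neural markers, and the other 5 were lowest in RP22 replicate 1 among the RP22 libraries, as for the neuronal gene ELAVL4 (56.9, 95.9 and 85.5 CPM). A high RP22 replicate 1 was not particular to NDRG1 and SOX10. The hypoxia-responsive genes LOX (48.7, 16.4 and 13.8 CPM) and P4HA1 (137, 70.9 and 87.0 CPM) were also highest there among the RP22 libraries, whereas BNIP3 and WSB1 were lowest. The part of SOX10 in the NDRG1 level was not tested.

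BNIP3 encodes a mitochondrial protein of the mitophagy pathway. It had 22.5, 29.2 and 24.2 CPM with AA147 and 19.6, 21.4 and 23.4 CPM with RP22, against 39.4, 35.3 and 38.5 CPM at day 1. All day 13 libraries lay below all day 1 libraries, and the AA147 and RP22 libraries overlapped. It fell against day 1 by 0.58 ± 0.115 with AA147 and by 0.80 ± 0.105 with RP22 on the log2 scale (edgeR adjusted p = 0.0011 and 0.00021). Between the compounds the log2 fold change was 0.14 ± 0.124 (edgeR adjusted p = 0.36), and it changed sign with library totals, to -0.32 (0.06).

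CA9, the gene of the tumour-associated carbonic anhydrase IX and a common marker of low oxygen, was barely detected. It had 0, 0 and 2 reads with AA147 and 2, 1 and 2 reads with RP22, against 9, 6 and 9 reads at day 1. CA9 did not pass the count filter in any comparison. The ratio of day 1 to AA147 was 8.80 (95% counting interval 2.18 to 76.8, exact) and that of day 1 to RP22 was 5.24 (1.96 to 17.6). The ratio of RP22 to AA147 was 1.68 (0.275 to 17.6), so a difference between the compounds was not detectable at this depth. Without the filter, CA9 was lower than at day 1 by -2.97 ± 0.912 with AA147 and by -2.30 ± 0.587 with RP22 (edgeR adjusted p = 0.012 and 0.0067).

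Over differentiation, 8 of the 10 genes could be tested with AA147 against day 1, and 4 were higher and 4 lower, beside 38.7% higher and 40.4% lower (79.1% in either direction) of 13761 genes. The libraries of both groups did not overlap for 8 of the 8, and for 82.4% of all genes tested. With RP22 against day 1, 9 could be tested, and 6 were higher and 3 lower, beside 36.6% and 35.2% (71.9% in either direction) of 14558 genes. Here 9 of the 9 did not overlap, beside 76.9% of all genes tested. These comparisons share the day 1 libraries. VEGFB, VEGFC, EGLN1 and NDRG1 were higher than at day 1 in both arms, and ADM, EGLN3 and BNIP3 lower in both. VEGFA was lower with AA147 and higher with RP22.

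**Figure D3:**
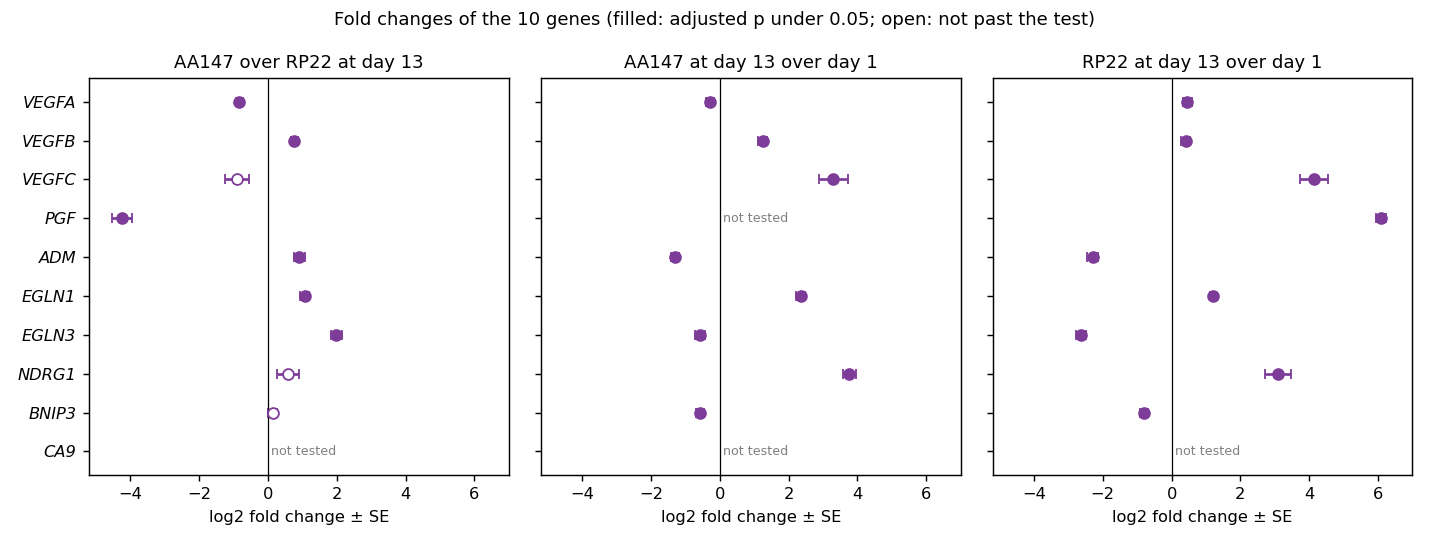
Log2 fold change ± SE of the 10 genes for AA147 over RP22, AA147 over day 1 and RP22 over day 1 (left to right), from 3 libraries a group. Filled points passed the test and open points did not. PGF has the lowest value of AA147 over RP22 (-4.24), and VEGFA lies on opposite sides of 0 against day 1 (-0.29 with AA147 and 0.46 with RP22).

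The order of levels per length also differed between the groups. At day 1 ADM led at 50.4 ± 5.45 RPKM, followed by BNIP3 at 26.6 ± 1.49 and EGLN3 at 18.2 ± 2.45, and VEGFA at 16.01 ± 1.88 overlapped EGLN3 (SD, n = 3). With RP22, PGF led at 32.2 ± 3.47 RPKM, VEGFA at 23.8 ± 5.51 overlapped it, and BNIP3 followed at 16.3 ± 1.96. With AA147 no gene led beyond the spread, since VEGFB, ADM, EGLN1, BNIP3 and NDRG1 lay between 12.6 and 15.3 RPKM and each overlapped the next. CA9 was the lowest of the 10 in both day 13 groups, and VEGFC was the lowest at day 1.

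Other hypoxia-responsive genes were split between the compounds. Of 30 such genes, 28 were tested, and 12 were higher and 7 lower with AA147 than with RP22 (median log2 fold change 0.436), beside 29.8% and 32.2% of all genes. Calls in either direction were thus about as frequent as over all genes (62.0%). With library totals 10 were higher and 12 lower, beside 1897 higher and 8527 lower of all 14293 genes tested. BHLHE40, a transcriptional repressor of the clock and stress responses, was higher with AA147 by 1.89 ± 0.111 (272 and 68.8 CPM with AA147 and RP22; edgeR adjusted p = 1.1e-05). CA12, a membrane carbonic anhydrase related to CA9, was lower by -2.98 ± 0.352 (1.59 and 11.8 CPM; edgeR adjusted p = 0.00023). LOX, which crosslinks collagen, was higher by 2.10 ± 0.567 (119 and 26.3 CPM; edgeR adjusted p = 0.025). The LOX call ended without AA147 replicate 1 (0.067) or RP22 replicate 2 (0.073) or 3 (0.063), and its log2 fold change was 2.91 without RP22 replicate 1.

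Against day 1, 18 of the 28 were higher and 6 lower with AA147, beside 38.7% and 40.4% of all genes. Library totals gave 13 higher and 8 lower, beside 3866 higher and 7416 lower of all 13761 genes tested. With RP22, 19 were higher and 6 lower, beside 36.6% and 35.2% of all genes. Of the 28 genes, 18 were higher in both arms, among them the glucose transporter genes SLC2A1 and SLC2A3, the collagen prolyl hydroxylase genes P4HA1 and P4HA2, and the pyruvate dehydrogenase kinase gene PDK1. Lower in both arms were 4 genes, namely the glycolytic HK2, PGK1 and ALDOC, and FAM162A. Both arms share the day 1 libraries, and the share of all genes called alike in both was not computed. These joint counts are therefore no trait of the listed genes. CA12 was lower than at day 1 with AA147 (-1.35 ± 0.367) and higher with RP22 (1.55 ± 0.201; edgeR adjusted p = 0.0072 and 0.0002).

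**Figure D4:**
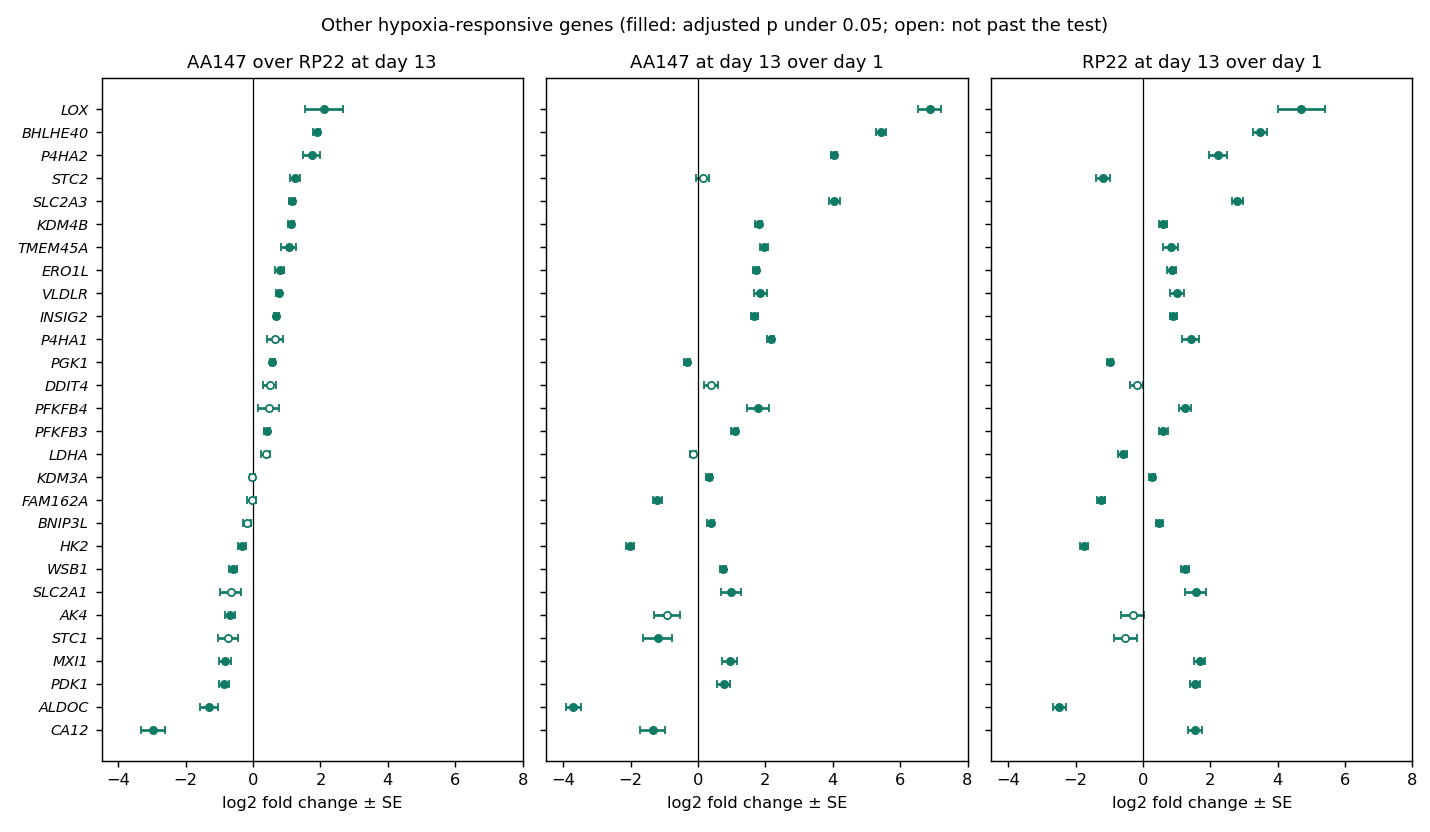
Log2 fold change ± SE of the 28 other hypoxia-responsive genes tested, ordered by AA147 over RP22 (left), with AA147 over day 1 (middle) and RP22 over day 1 (right). Filled points passed the test and open points did not. LOX is at the top (2.10) and CA12 at the bottom (-2.98) of the left panel.

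Genes whose pattern over the 9 libraries was most like that of each member were found by the root mean square distance between centred log2 CPM profiles, among genes with a mean of at least 5 CPM. The nearest were PLAC4 and ZEB1 for PGF (0.387 and 0.398), BBS4 and EPB41L5 for VEGFA (0.102 and 0.108), and SSR4 and YIPF3 for VEGFB (0.0651 and 0.0812). For VEGFC they were COL11A1 and MUM1L1 (0.144 and 0.167), for ADM UCHL1 and MYO1E (0.133 and 0.18), and for EGLN1 TLN2 and FAM174A (0.0976 and 0.122). TUBA4A and FOXO1 lay nearest to EGLN3 (0.278 and 0.285), MRC2 and EHBP1L1 to NDRG1 (0.242 and 0.257), and MTRNR2L9 and NOC3L to BNIP3 (0.0652 and 0.0674). For scale, the spread of a member's own profile over the libraries was 0.327 for VEGFA and 2.46 for PGF on the same log2 scale.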

How the data were processed

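RNA of 9 HUES9 libraries was analysed from 2 deposited tables. The authors deposited expected counts (reads per gene, unscaled) and RPKM (reads per kilobase, relative to the library total), per the file headers. GRCh37.p13 is the build named in the submitters' processing notes. The aligner and counter were not stated there, in the labels or in the headers. In the count table the floor of 0.05 (41.43% of cells) was read as 0, fractions of shared reads (0.9142% of cells) were rounded, and 42 symbols on several rows were summed. Solvent-only cells were not analysed here.

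Each comparison was fitted on its own 6 libraries in R 4.3.3 with edgeR 4.0.16 (filterByExpr, TMM, robust quasi-likelihood F test, group as the only term), with p-values adjusted by Benjamini-Hochberg over all genes tested and a threshold of 0.05. The SE is the absolute log2 fold change over the square root of F. CPM uses TMM factors of all 9 libraries. Counting intervals are exact and cover counting error only. p-values rest on the replicates being independent experiments, as labelled. The procedure was tested on simulated data with rises and falls in a small share of genes. That test does not cover the scaling differences between the groups.

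The 10 genes, the lists and the naming rule were chosen with earlier results of these data known. Named are all 10 genes, up to 3 genes of each other list with the largest difference past the test and at least 5 CPM in the higher group, and the 2 nearest profiles of each gene. Other genes, such as FLT1, CALCRL, RAMP2, EGLN2, SOX10 and the markers with values, were named after their values were seen. Alternatives were DESeq2 1.42.0, limma-voom and limma on log2(RPKM + 0.1) with limma 3.58.1, DESeq2 size factors, library totals, no filter, all 9 libraries in 1 fit, no rounding, a replicate block, and leaving libraries out. A length check of the RPKM shares was chosen after seeing the data. Promoters are from RefSeq (GRCh38.p14), matched by symbol, and are not used with coordinates of the files' build.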

Additional observations from a re-analysis of the deposited data

Results flagged for a closer look

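For 4 of the genes named by rule, and for the neural marker SOX10, the compounds gave opposite directions against day 1, and the difference between the compounds itself passed the edgeR test. SOX10 was the only marker put to this rule. The neural marker DCX and the endothelial marker TIE1 had the same calls in the 3 comparisons. VEGFA was lower than at day 1 with AA147 and higher with RP22, and its log2 fold change of AA147 over RP22 was -0.83 (adjusted p = 0.00029). Its call against day 1 ended under 9 of 16 alternatives with AA147 and under 2 with RP22. HIF1A was higher than at day 1 with AA147 (1.62 ± 0.106) and lower with RP22 (-0.21 ± 0.0797), with 1.75 for AA147 over RP22 (edgeR adjusted p = 1e-05). The RP22 call of HIF1A ended with DESeq2 (adjusted p = 0.065) and with library totals (edgeR adjusted p = 0.25), and without RP22 replicate 2 (0.075) or 3 (0.14) or day 1 replicate 2 (0.17) or 3 (0.053). ARNT2 was lower than at day 1 with AA147 (-0.84 ± 0.159) and higher with RP22 (1.53 ± 0.155), with -2.45 for AA147 over RP22 (edgeR adjusted p = 1.4e-05). CA12 was lower than at day 1 with AA147 and higher with RP22, with -2.98 for AA147 over RP22 (edgeR adjusted p = 0.00023). SOX10 was lower than at day 1 with AA147 (1 read over the AA147 libraries; edgeR adjusted p = 1.4e-05) and higher with RP22 (0.00081). Its fitted log2 fold change of AA147 over RP22, -10.29 (edgeR adjusted p = 0.0008), depends on the prior count at so few reads and is no bound.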

How the results depend on the processing

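The counts of the 10 genes called higher or lower stayed within 1.5 times in all 16 alternatives of each comparison. Of 26 tested results for single members, 20 kept their direction and their side of the threshold in every alternative, and of 416 values 17 lost the call, 10 gained it and 2 changed sign. The sign changes were BNIP3 for AA147 over RP22, at -0.32 with library totals and -0.31 with limma on log2 RPKM, where scaling shifts all genes down. NRP2 for AA147 over day 1 (0.18) was -0.25 and -0.42 in the same fits. ANGPT1 for RP22 over day 1 (-0.13) was 0.22 with limma-voom, 0.23 with limma on log2 RPKM and 0.066 with a replicate block, and -0.60 to 0.28 when 1 library was left out, and the cause was not tested. Deviations from the group means correlated over genes at 0.191, 0.166 and 0.0275 between same-numbered AA147 and RP22 libraries 1, 2 and 3. AA147 replicates 1 and 2 matched the RP22 library of their own number best, and replicate 3 did not. Against day 1 the correlations of same-numbered libraries were -0.0655 to 0.0845. The numbers were not taken as pairs in the main fits, which therefore do not remove spread that same-numbered AA147 and RP22 libraries share. With a replicate block VEGFC passed for AA147 over RP22 (-0.90, edgeR adjusted p = 0.022) and VEGFB no longer for RP22 over day 1 (0.41, 0.056), and it changed no other call of the 10 genes. Depth limits CA9, and PGF and VEGFC at day 1.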
